A study of Mus musculus with 8 samples.

Results

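Voltage-gated sodium channel genes were examined by RNA sequencing of tdTomato-labelled cells, which had been isolated by FACS from cochlear nuclei dissected from E18.5 mouse embryos. The 7 genes were chosen by name: the pore-forming alpha subunit genes Scn1a, Scn2a, Scn3a and Scn8a, and the auxiliary beta subunit genes Scn2b, Scn3b and Scn4b. All 7 were found by Ensembl identifier among the 39017 genes of the deposited count table, and all 7 passed the filter on low counts. The study compared 4 mutant with 4 wild type libraries in order to learn what the hindbrain transcription factors Hoxa2 and Hoxb2 do in these cells. Mutant embryos carried Math1::Cre and Rosa tdTomato with the conditional alleles Hoxa2+/fl and Hoxb2fl/fl according to the sample titles, whereas the design text describes the conditional Hoxa2 allele as homozygous as well. Wild type embryos carried Math1::Cre and Rosa tdTomato alone, so that Cre recombinase and the reporter were common to both groups, as was the C57BL/6 strain. Math1, also called Atoh1, is active in the rhombic lip, and any deletion was limited to cells in which this driver had been active. Each library held 30000 sorted cells from 3 pooled littermates, and each pool came from a different mother. Libraries are named by group and by the number in their column heading, from mutant 1 to mutant 4 and from wild type 5 to wild type 8.

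Voltage-gated sodium channels carry the inward current that starts the action potential. The alpha subunit forms the pore and its voltage sensors, and beta subunits, which are cell adhesion proteins of the immunoglobulin type, modify gating and help to place the channel in the axon membrane. In the rodent brain Scn3a is the alpha subunit typical of the embryo, and Scn2a is prominent early in the initial segment of immature axons. During maturation Scn8a takes over at the initial segment and at nodes of Ranvier, and Scn1a rises after birth, above all in fast-firing inhibitory neurons. Among beta subunits Scn3b is the early form, while Scn2b and Scn4b come up with maturation, and Scn4b is linked to the resurgent sodium current of fast-firing neurons. Scn3a, Scn2a and Scn3b are therefore called early subunits here, and Scn8a, Scn1a, Scn2b and Scn4b mature subunits.

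The alpha subunit genes other than Scn8a lie together on chromosome 2 (GENCODE M21, mm10). Scn3a (ENSMUSG00000057182, 65457118 to 65567627, minus strand) and Scn2a (ENSMUSG00000075318, 65620771 to 65767447, plus strand) stand head to head with 53143 bases between them. Scn1a (ENSMUSG00000064329, 66270778 to 66440840, minus strand) follows, next to Scn9a and Scn7a. Scn8a (ENSMUSG00000023033) is on chromosome 15, from 100869858 to 101045938. All 3 beta subunit genes are on chromosome 9, with Scn3b (ENSMUSG00000049281) at 40269217 to 40291618, Scn2b (ENSMUSG00000070304) at 45117782 to 45130070 and Scn4b (ENSMUSG00000046480) at 45138395 to 45154152. Scn2b and Scn4b are transcribed in the same direction, 8324 bases apart. No annotated exon of any of the 7 genes shared bases with an exon of another gene of the table, although the spans of Scn3a, Scn1a and Scn2b each overlap that of a noncoding gene. Alpha subunit genes are close paralogs, and how reads that match several of them were counted is not given in the sources used here.

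Start-site sequences are shown for Scn8a, whose level was nearly even between libraries, and for Scn2a and Scn1a, which varied together. RefSeq windows (GRCm38.p6) matched 5 of the 7 genes, with 7 start sites in all, and the 250 bases before each start were searched on both strands. The letters searched were TGATTGAT (a site at which Hox and Pbx proteins bind as a pair), TTCAGCACC (the left part of the RE1 element bound by the repressor Rest), TATAAA (the box bound by the TATA-binding protein), GGGCGG (the box bound by Sp proteins) and the promoter element CCAAT. No pair of these motifs overlapped in the windows of the 7 genes. Capitals mark a match.
Scn8a upstream start, chr15:100870395-100870644, plus strand: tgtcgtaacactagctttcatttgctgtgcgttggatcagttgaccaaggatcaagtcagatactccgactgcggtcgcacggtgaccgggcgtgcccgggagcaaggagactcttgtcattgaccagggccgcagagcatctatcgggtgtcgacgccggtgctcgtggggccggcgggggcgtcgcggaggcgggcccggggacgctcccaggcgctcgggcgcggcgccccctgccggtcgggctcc
Scn8a downstream start, chr15:100936021-100936270, plus strand: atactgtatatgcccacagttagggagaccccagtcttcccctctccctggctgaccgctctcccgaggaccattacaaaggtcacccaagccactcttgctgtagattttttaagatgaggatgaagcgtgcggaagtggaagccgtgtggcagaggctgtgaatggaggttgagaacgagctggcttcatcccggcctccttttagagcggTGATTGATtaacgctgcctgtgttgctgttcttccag
Scn2a downstream start, chr2:65668436-65668685, plus strand: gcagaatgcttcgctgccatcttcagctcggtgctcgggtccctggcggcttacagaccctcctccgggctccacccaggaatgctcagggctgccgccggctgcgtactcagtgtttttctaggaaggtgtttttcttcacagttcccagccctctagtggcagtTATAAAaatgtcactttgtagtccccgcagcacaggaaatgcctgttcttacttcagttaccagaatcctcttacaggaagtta
Scn1a, chr2:66440838-66441087, minus strand: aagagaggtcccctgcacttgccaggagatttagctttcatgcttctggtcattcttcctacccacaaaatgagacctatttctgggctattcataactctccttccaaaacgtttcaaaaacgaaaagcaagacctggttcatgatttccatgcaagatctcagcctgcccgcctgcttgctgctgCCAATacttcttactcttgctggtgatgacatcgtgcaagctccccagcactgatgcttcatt
The upstream Scn8a window held none of the motifs and had 30 CG pairs and 68.0% G and C. The downstream Scn8a start lies 66413 bases past the annotated start of the gene, and the upstream one 787 bases past it. The downstream Scn8a window held TGATTGAT with its first base 37 bases before the start. The same letters occurred in 0.670% of the 32851 windows of this length. The downstream Scn2a window, for a start 47915 bases past the annotated one, held TATAAA at 84 bases before the start. These letters were found in 12.4% of windows. An upstream Scn2a window, not shown, held none of the motifs. CCAAT, found in 33.8% of windows, was at 63 bases in the Scn1a window and at 67 bases in that of Scn4b, which is not shown. TTCAGCACC, found in 0.301% of windows, and GGGCGG, found in 32.7%, were in none of the windows of the 7 genes. A match is a description of these letters and no evidence of binding.

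Total counts ranged from 24789043 to 51118195 per library. Levels are CPM, that is counts relative to library size, after TMM scaling, which sets the libraries to a common scale, and levels of different genes are compared as CPM per kilobase of the deposited gene length. Hoxb2 fell to 5.02 ± 1.49 CPM in mutant libraries, against 40.1 ± 4.41 CPM in wild type libraries (SD, n = 4 each). This was a change of -3.00 on the log2 scale (SE 0.199) with an adjusted p of 3.76e-05 by edgeR. Hoxb2 shares 953 exon bases with the antisense gene Hoxb3os, and without a record of strand their reads cannot be told apart. Hoxa2 did not pass, at 26.7 ± 15.7 CPM in mutant and 43.2 ± 10.99 CPM in wild type libraries (SD, n = 4 each, edgeR adjusted p = 0.506). Neuronal markers were abundant in all 8 libraries: the 6 listed genes summed to between 2673 and 3517 CPM in mutant libraries and between 2704 and 3577 CPM in wild type libraries. Markers of Schwann cells summed to at most 1.89 and 2.54 CPM in mutant and wild type libraries. Microglial markers summed to at most 16.4 and 19.8 CPM, and endothelial markers to at most 12.4 and 16.8 CPM. Of the microglial markers 1 fell, the complement gene C1qa, at 0.203 ± 0.104 CPM in mutant and 2.36 ± 1.19 CPM in wild type libraries (SD, n = 4 each; log2 fold change -3.45, SE 0.50, edgeR adjusted p = 0.0115). Astrocyte and radial glia markers, with 7 genes, summed to between 377 and 774 CPM in mutant libraries and between 605 and 835 CPM in wild type libraries. The 6 markers of Atoh1-lineage excitatory neurons summed to between 981 and 1170.4 CPM in mutant libraries and between 1236 and 1391 CPM in wild type libraries, and 1 of them, Nhlh1, fell. Oligodendrocyte lineage markers reached at most 71.6 and 93.6 CPM, and pericyte and meningeal markers at most 9.49 and 14.3 CPM.

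No sodium channel subunit passed the test between mutant and wild type. Of the 7 genes 0 rose and 0 fell by edgeR's quasi-likelihood test, where the threshold was an adjusted p below 0.05 over all 19494 genes tested and 0.359% of genes passed. None had an unadjusted p below 0.05, against 12.5% of all genes tested, and 0 passed with DESeq2, limma-voom or limma-voom with quality weights. DESeq2 gave no adjusted p for Scn4b. No member had groups that did not overlap, as 6.17% of tested genes did. Fold changes were positive for 5 of the 7, with a median log2 fold change of 0.40, against 48.4% positive and a median of -0.01 over all genes tested. The exact two-sided permutation p of the 7 genes, unadjusted, lay between 0.171 and 0.6, where the smallest that 70 splits of 8 libraries allow is 0.0286.

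**Figure D1:**
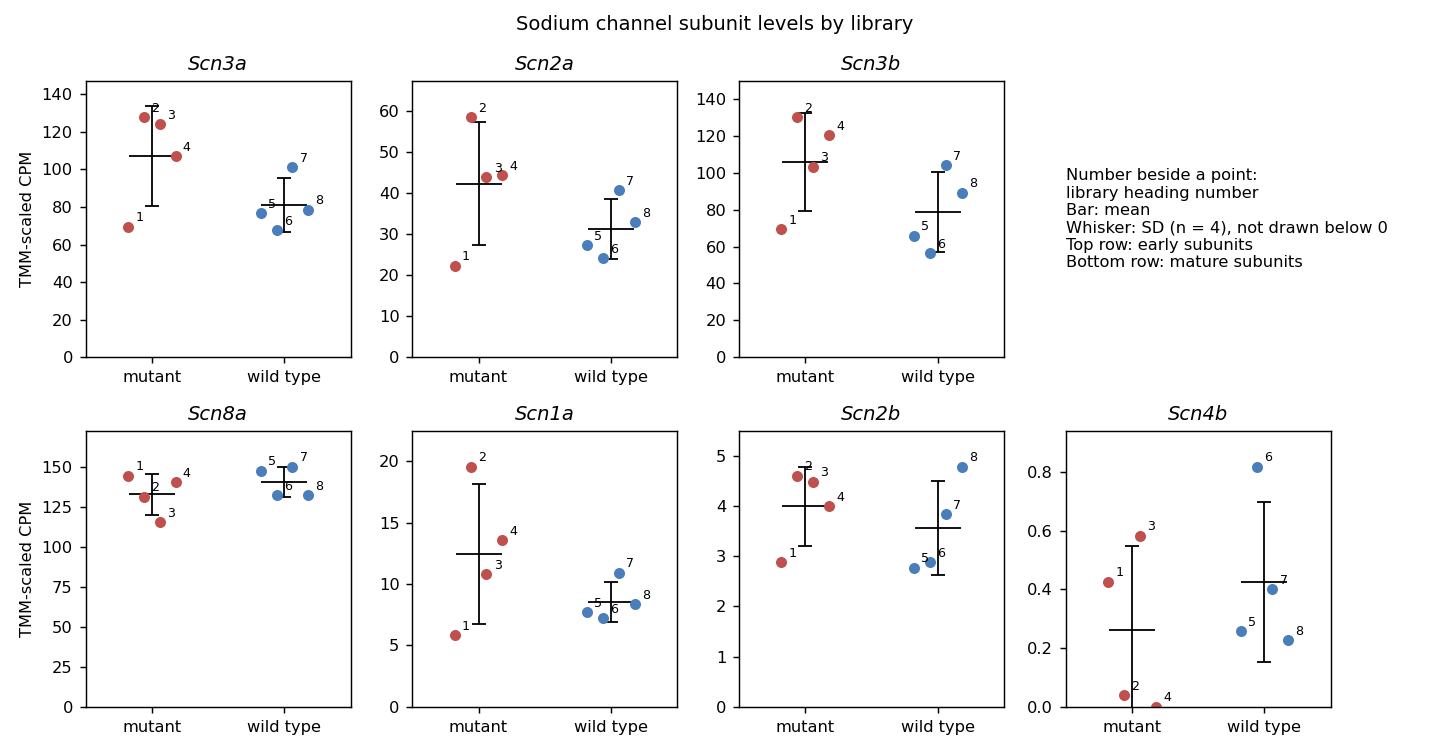
TMM-scaled CPM of each subunit by library, early subunits above and mature subunits below, with mutant libraries left of wild type libraries. Points are libraries with their heading number, bars are means and whiskers SD (n = 4); Scn8a stayed between 116 and 150 CPM while Scn3a, Scn2a, Scn3b and Scn1a were low in mutant 1, wild type 5 and wild type 6.

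Scn3a, the embryonic alpha subunit, had 69.5, 128, 124 and 107 CPM in mutant 1 to 4, against 76.8, 67.6, 101 and 78.5 CPM in wild type 5 to 8. Mutants 2, 3 and 4 were above every wild type library, and mutant 1 was below 3 of them. The mean was 107 ± 26.7 CPM in mutant and 81.0 ± 14.2 CPM in wild type libraries (SD, n = 4 each). The log2 fold change, 0.40 (SE 0.186, 95% interval -0.01 to 0.81) had the smallest p of the 7 genes and did not pass (edgeR adjusted p = 0.407).

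Scn2a, the neighbour of Scn3a and the early axonal alpha subunit, had 22.3, 58.6, 44.0 and 44.3 CPM in mutant 1 to 4, against 27.3, 24.1, 40.7 and 33.0 CPM in wild type 5 to 8. As for Scn3a, 3 mutant libraries were above all wild type libraries, and mutant 1 was the lowest of all 8. Mutant over wild type, the change was 0.43 on the log2 scale (SE 0.264, 95% interval -0.15 to 1.02, edgeR adjusted p = 0.523).

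Scn8a, the alpha subunit of mature initial segments and nodes, was the most even of the 7 genes. It had 145, 131, 116 and 141 CPM in mutant 1 to 4, against 148, 132, 150.2 and 132 CPM in wild type 5 to 8. No mutant library was above the wild type range, and mutants 2 and 3 were below it. The highest library was 1.30 times the lowest, against 3.35 times for Scn1a. Among the 9842 genes with an average of at least 10 CPM, 13.5% had a smaller SD of log2 CPM over the 8 libraries than Scn8a, whereas 95.4% had a smaller SD than Scn1a. The log2 fold change was -0.08 (SE 0.104, edgeR adjusted p = 0.771), and its 95% interval of -0.31 to 0.15 corresponds to a mutant level of between 0.808 and 1.11 times that of wild type.

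Scn1a, the alpha subunit of fast-firing inhibitory neurons in the adult, had 5.83, 19.5, 10.8 and 13.6 CPM in mutant 1 to 4, against 7.68, 7.20, 10.9 and 8.35 CPM in wild type 5 to 8. Mutants 2 and 4 were above the wild type range and mutant 1 below it. Although it is a mature subunit, its log2 CPM over the 8 libraries, which share depth and scaling, ran with that of the early Scn2a (Pearson r = 0.967) and not with that of Scn8a (r = -0.248). The log2 fold change of 0.54 (SE 0.303, 95% interval -0.13 to 1.21, edgeR adjusted p = 0.49) was the largest of the positive ones. Markers of inhibitory neurons, 6 genes, summed to 80.3, 115, 77.1 and 108 CPM in mutant 1 to 4 and to 65.4, 91.4, 81.3 and 90.8 CPM in wild type 5 to 8. The sum joins opposite directions. Gad1, Gad2, Slc32a1, Slc6a5 and Pax2 had log2 fold changes between 0.62 and 1.14, and Lhx1 had -1.12. None passed (edgeR adjusted p of at least 0.266). The part of these markers in the Scn1a levels was not tested. In bulk RNA, fewer cells of a type and less RNA per cell cannot be told apart.

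Among beta subunits Scn3b, the early form, had 69.5, 130.2, 103 and 120.3 CPM in mutant 1 to 4, against 66.0, 56.3, 104 and 89.2 CPM in wild type 5 to 8. Mutants 2 and 4 were above the wild type range, and mutants 1 and 3 lay within it. The log2 fold change was 0.42 (SE 0.225, 95% interval -0.08 to 0.92, edgeR adjusted p = 0.47).

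Scn2b, which is linked to alpha subunits by a disulfide bond, had 2.88, 4.61, 4.49 and 4.00 CPM in mutant 1 to 4, against 2.78, 2.88, 3.83 and 4.78 CPM in wild type 5 to 8. All 4 mutant libraries lay within the wild type range. On the log2 scale the difference was 0.16 (SE 0.239, edgeR adjusted p = 0.806).

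Scn4b was close to the limit of detection. It had 13, 1, 30 and 0 counts in mutant 1 to 4, against 10, 21, 14 and 9 counts in wild type 5 to 8. The groups overlapped, and mutants 2 and 4 were lowest. For the 0 counts of mutant 4 a limit of 3 counts corresponds to 0.0761 CPM of its total, and the upper bound of the exact Clopper-Pearson 95% interval was 0.0936 CPM. In wild type 6, the highest library, the same interval ran from 0.524 to 1.29 CPM. Limits and intervals cover counting error only. Its log2 fold change of -0.58 (SE 0.842, 95% interval -2.42 to 1.27, edgeR adjusted p = 0.801) leaves its direction undetermined at this depth, and over the alternative settings it lay between -2.55 and -0.09.

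**Figure D2:**
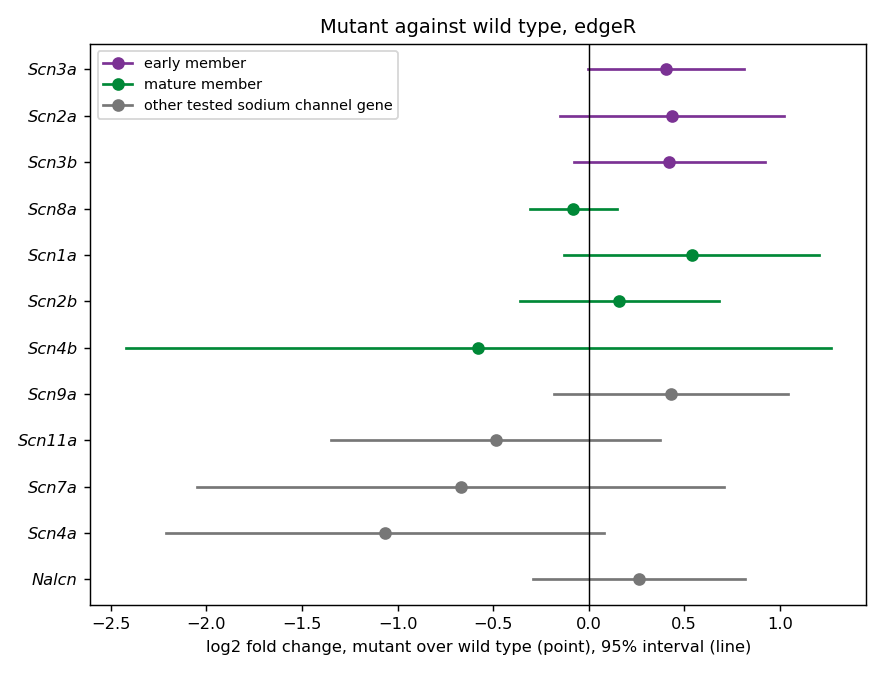
Log2 fold change of mutant over wild type for the 7 subunits and 5 other sodium channel genes tested, with points for the edgeR estimate and lines for its 95% interval. Every interval includes 0; that of Scn8a is the narrowest, from -0.31 to 0.15.

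Per kilobase the order of the 7 genes was Scn3b, Scn8a, Scn3a, Scn2a, Scn1a, Scn2b and Scn4b, taking all 8 libraries together. Mean levels in mutant and wild type libraries were 19.1 ± 4.80 and 14.2 ± 3.92 CPM per kilobase for Scn3b, and 10.96 ± 1.06 and 11.6 ± 0.797 for Scn8a (SD, n = 4 each). They were 8.60 ± 2.14 and 6.50 ± 1.14 CPM per kilobase for Scn3a, and 4.57 ± 1.62 and 3.38 ± 0.787 for Scn2a. Scn3b exceeded Scn8a in 6 of the 8 libraries, and Scn8a exceeded Scn3a in 7, so that these neighbours were not separated in every library. Scn3a exceeded Scn2a, and Scn2a exceeded Scn1a, in all 8. Scn1a and Scn2b, at 1.12 ± 0.516 and 0.875 ± 0.173 CPM per kilobase in mutant libraries and 0.771 ± 0.150 and 0.782 ± 0.206 in wild type libraries, did not differ beyond their spread. Scn4b was lowest, at 0.0530 and 0.0862 CPM per kilobase in mutant and wild type libraries. With the longest annotated transcript as length, Scn3b exceeded Scn8a in all 8 libraries and Scn8a exceeded Scn3a in 6. Scn1a then exceeded Scn2b in 7 libraries, against 5 with the deposited length.

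Of the mature alpha subunits, Scn8a RNA was thus well represented at E18.5 beside that of the early Scn3a and Scn2a, whereas Scn1a was low. Counts by gene do not tell transcript forms of Scn8a apart. Scn8a made up 58.3, 37.1, 37.8 and 44.2% of the summed level of the 4 alpha subunits per kilobase in mutant 1 to 4, against 55.4, 55.6, 47.8 and 50.7% in wild type 5 to 8. Mutants 2, 3 and 4 were below every wild type library and mutant 1 was above them all. Scn3a made up 27.3, 35.2, 39.5 and 32.8% in mutant 1 to 4, against 28.1, 27.7, 31.4 and 29.3% in wild type 5 to 8. Scn2a had between 11.8 and 21.7% in mutant and between 13.3 and 17.0% in wild type libraries, and Scn1a at most 6.04 and 3.81%.

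The log2 ratio of mature (Scn8a and Scn1a) over early (Scn3a and Scn2a) alpha subunits, per kilobase, was 0.64, -0.40, -0.49 and -0.06 in mutant 1 to 4, against 0.50, 0.52, 0.09 and 0.24 in wild type 5 to 8. Its mean was -0.08 ± 0.51 in mutant and 0.34 ± 0.21 in wild type libraries (SD, n = 4 each). The difference of -0.42 is a description with no test, because the ratio is a score over the chosen genes. Without mutant 1 the difference became -0.65. The ratio was highest in mutant 1, wild type 5 and wild type 6. These libraries had the highest summed cycling markers and the lowest summed neuronal markers, as given below. The part of these markers in the ratio was not tested. Scn8a stood at 2.13, 1.05, 0.957 and 1.35 times Scn3a per kilobase in mutant 1 to 4, against 1.97, 2.01, 1.52 and 1.73 times in wild type 5 to 8. Ratios among Scn1a, Scn2a and Scn3a covered narrower ranges. Scn1a stood at between 0.205 and 0.279 of Scn2a per kilobase in mutant and between 0.212 and 0.250 in wild type libraries. Scn3a stood at between 1.62 and 2.32 times Scn2a in mutant and between 1.77 and 2.09 times in wild type libraries. Among beta subunits the early Scn3b held at least 94.4% of the summed level in every mutant library and at least 92.7% in every wild type library.

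**Figure D3:**
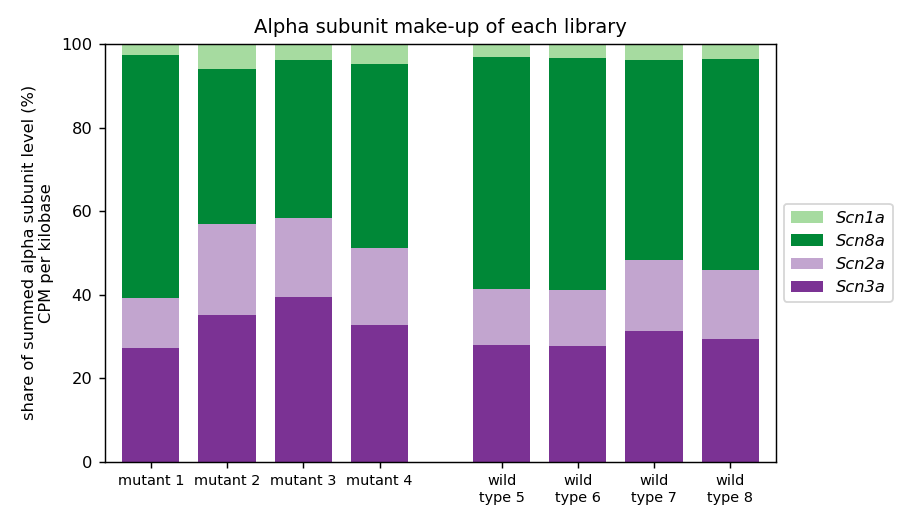
Share of each alpha subunit gene in their summed level (CPM per kilobase, in percent) in every library, mutant libraries left of wild type libraries. Scn8a, the mature subunit, runs from 37.1% in mutant 2 to 58.3% in mutant 1, against 47.8 to 55.6% in wild type libraries.

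The same libraries were low for most subunits. Mutant 1, wild type 5 and wild type 6 were the 3 lowest of the 8 for Scn3a, Scn2a, Scn3b, Scn1a and Scn2b, which is 5 of the 7 genes, but not for Scn8a or Scn4b. They were the 3 lowest for 8.70% of all genes tested; these libraries were singled out with their values known. Markers of cycling cells (Mki67, Top2a, Cdk1 and Ccnb1) were highest in mutant 1, wild type 5 and wild type 6. They summed to 605, 307, 203 and 169 CPM in mutant 1 to 4, against 833, 802, 209.9 and 313 CPM in wild type 5 to 8. The summed neuronal markers were lowest in the same 3 libraries, at 2673 CPM in mutant 1, 2714 CPM in wild type 5 and 2704 CPM in wild type 6, against at least 3287 CPM in each of the others. The part of these markers in the subunit levels was not tested.

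**Figure D4:**
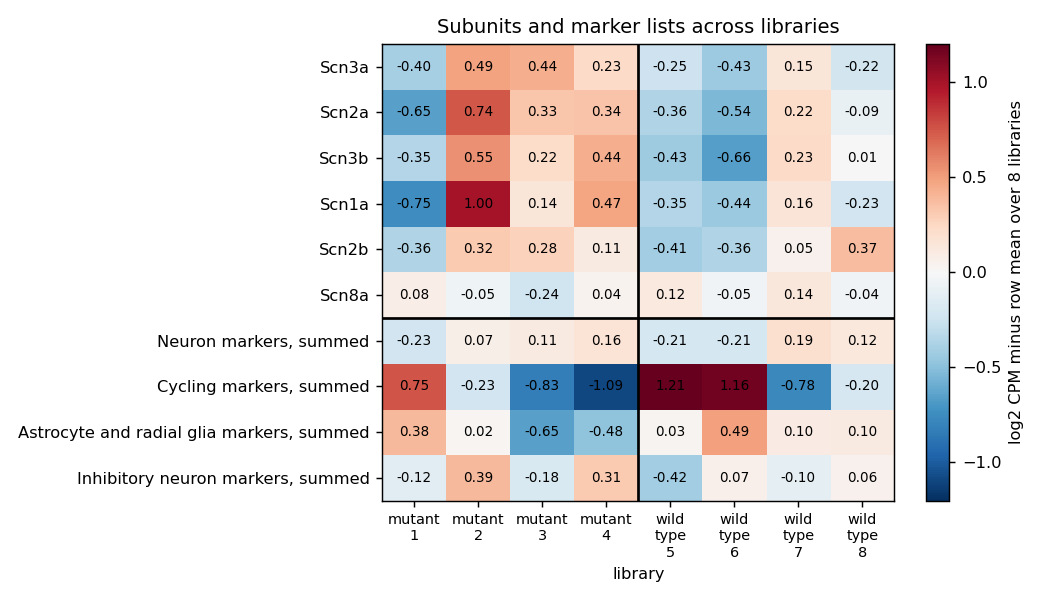
Log2 CPM of 6 subunits and of 4 summed marker lists in each library, minus the mean of the row over the 8 libraries, with mutant libraries left of wild type libraries. Scn3a, Scn2a, Scn3b, Scn1a and Scn2b are below their mean in mutant 1, wild type 5 and wild type 6, where cycling markers are above theirs, by 0.75, 1.21 and 1.16; Scn8a stays within 0.24 of its mean.

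Fold changes were repeated without these libraries and with the cycling markers taken into account. Without mutant 1 the log2 fold changes were 0.56 for Scn3a (SE 0.14, edgeR adjusted p = 0.054), 0.65 for Scn2a (SE 0.18, 0.0788), 0.77 for Scn1a (SE 0.218, 0.0804) and 0.58 for Scn3b (SE 0.19, 0.126). None passed, although 2.70% of all genes did in that setting. With wild type 5 and 6 left out in addition they were 0.42, 0.41, 0.60 and 0.29, with adjusted p of at least 0.351. With the mean log2 CPM of the 4 cycling markers as a covariate, a setting chosen after seeing the data, they were 0.23, 0.18, 0.30 and 0.19, with adjusted p of at least 0.684. Scn8a remained between -0.13 and -0.08 in these settings.

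Genes whose levels ran most like those of Scn3a and Scn8a were taken by Pearson correlation of log2 CPM over the 8 libraries, among the 9842 genes with at least 10 CPM on average. For Scn3a these were Phyhipl (r = 0.985), Ccdc88a (r = 0.981), which encodes the actin-binding protein girdin, and Rundc3b (r = 0.971). For Scn8a they were the atypical cadherin Fat1 (r = 0.979), the DNA demethylase Tet1 (r = 0.978) and the noncoding RNA Nron (r = 0.977). With so many genes and so few libraries these values only describe likeness, and all these genes share the same libraries and their depth.

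Of 8 other sodium channel genes listed, 7 were tested and 0 passed by edgeR, DESeq2 or limma-voom, with 0 at an unadjusted edgeR p below 0.05. Their median log2 fold change was -0.31. Scn9a, the alpha subunit best known from sensory neurons, had 11.1, 32.7, 18.6 and 19.4 CPM in mutant 1 to 4, against 11.8, 13.9, 18.2 and 16.6 CPM in wild type 5 to 8. Its lowest library was mutant 1 and its highest mutant 2, as for Scn1a and Scn2a, and its log2 fold change was 0.43 (SE 0.278, edgeR adjusted p = 0.541). It shares 180 exon bases with the antisense gene Gm13629, so its counts may include antisense reads. Nalcn, the sodium leak channel, averaged 35.4 ± 10.4 CPM in mutant and 29.5 ± 8.59 CPM in wild type libraries (SD, n = 4 each; log2 fold change 0.26, SE 0.251, edgeR adjusted p = 0.684).

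The skeletal muscle gene Scn4a, the sensory neuron gene Scn11a and Scn7a, which encodes a sodium sensor channel of glia, each had group means of at most 1.01 CPM. Their log2 fold changes were -1.07 (SE 0.527), -0.49 (SE 0.395) and -0.67 (SE 0.633), with edgeR adjusted p of at least 0.435. Scn10a, another sensory neuron gene, did not pass the filter on low counts.

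Intracellular modulators of the channel were 11 genes, among them the fibroblast growth factor homologous factors, which bind the tail of the alpha subunit and shape its inactivation. By edgeR 0 of 11 passed, 9 had a positive fold change, against 48.4% of all genes tested, and 3 were below 0.05 before adjustment, against 12.5% of all genes. The median log2 fold change was 0.32. Fgf14 averaged 20.2 ± 5.51 CPM in mutant and 12.5 ± 3.74 CPM in wild type libraries (SD, n = 4 each; log2 fold change 0.69, SE 0.231, edgeR adjusted p = 0.269). Fgf12 averaged 10.5 ± 2.47 CPM in mutant and 6.47 ± 1.96 CPM in wild type libraries (SD, n = 4 each; log2 fold change 0.70, SE 0.239, edgeR adjusted p = 0.276). Without mutant 1 Fgf13 passed as higher, at 0.83 (SE 0.177, edgeR adjusted p = 0.0328). When wild type 5 and 6 were left out as well, it had 0.54 and an adjusted p of 0.119.

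The axon initial segment and node scaffold, where sodium channels are held by ankyrin G, was listed with 15 genes. By edgeR 0 of them passed and 2 were below 0.05 before adjustment (12.5% of all genes were). Fold changes were positive for 11 of the 15, against 48.4% of all genes tested, and the median log2 fold change was 0.11. Cntnap1, the paranodal adhesion protein Caspr, averaged 24.7 ± 4.08 CPM in mutant and 30.5 ± 2.76 CPM in wild type libraries (SD, n = 4 each; log2 fold change -0.31, SE 0.137, edgeR adjusted p = 0.387).

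Of 18 regulators of splicing and transcription of sodium channel genes, 0 passed by edgeR and 2 were below 0.05 before adjustment (12.5% of all genes were). Fold changes were positive for 5 of the 18, against 48.4% of all genes tested, and the median log2 fold change was -0.04. The neuronal splicing factors Rbfox3 and Rbfox1 had log2 fold changes of 0.39 (SE 0.126, edgeR adjusted p = 0.255) and 0.65 (SE 0.261, 0.351). Without mutant 1 Rbfox1 passed as higher (0.85, SE 0.193, edgeR adjusted p = 0.0418) and Rcor2, a corepressor that acts with Rest, passed as lower (-0.55, SE 0.128, 0.045). With wild type 5 and 6 also left out neither passed (0.249 and 0.307). DESeq2 and limma-voom called none of the modulator, scaffold and regulator genes.

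Markers of neuronal age were counted in the same way. Of 12 immature neuron genes 0 rose and 1 fell by edgeR, with a median log2 fold change of 0.09. Over all genes tested 0.144% rose and 0.215% fell. Before adjustment 2 of the 12 were below 0.05, against 12.5% of all genes. The gene that fell was Nhlh1, a transcription factor of young neurons, which averaged 46.3 ± 6.86 CPM in mutant and 89.2 ± 5.61 CPM in wild type libraries (SD, n = 4 each; log2 fold change -0.95, SE 0.119, edgeR adjusted p = 0.00603). Of 16 mature neuron genes 0 passed by edgeR and 5 were below 0.05 before adjustment (12.5% of all genes were), and the median log2 fold change was 0.23. The neurofilament gene Nefm had -1.07 (SE 0.263, edgeR adjusted p = 0.146) and the calcium-binding protein gene Calb2 had 1.06 (SE 0.293, 0.195). DESeq2, which called 497 of all 19494 genes, called both, and limma-voom called neither. By edgeR Calb2 passed without mutant 1 (adjusted p = 0.0182) but not with wild type 5 and 6 left out as well (0.141) or with the cycling covariate (0.171). Nefm did not pass without mutant 1 (edgeR adjusted p = 0.103), and passed with wild type 5 and 6 also left out (0.00772) and with the cycling covariate (0.00466). Mutant 1, wild type 5 and wild type 6 were the 3 lowest libraries for 7 of the 12 immature and 7 of the 16 mature neuron genes. Over all genes tested this share was 8.70%.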

How the data were processed

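The authors deposited raw counts by Ensembl gene for 8 libraries in 1 table, with a length per gene headed width, per the file headers. Per the submitters' processing notes, reads were called with bcl2fastq 1.8.4 and the genome was mm10. The aligner, counter and annotation release are not given in the sources used here. RNA (2 ng) was amplified for 14 PCR cycles with poly-A and random primers, per the labels' protocols, and no strand is recorded. Headings show the group and a running number, not the replicate number of the titles, so columns were assigned to groups only. Of 39017 genes 37607 matched a symbol.

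Counts were fitted in R 4.3.3 with edgeR 4.0.16: filterByExpr, TMM scaling and the robust quasi-likelihood F test on 4 against 4 libraries, with Benjamini-Hochberg adjustment over all 19494 genes tested. The SE is the absolute log2 fold change over the square root of F, and intervals use the fit's degrees of freedom. On simulated counts with 200 genes changed, the fit recovered 11% of them at 1.5-fold, 64% at 2-fold and 91.5% at 4-fold. Of its calls 8.33%, 5.19% and 6.15% were wrong. Changes of 1.5-fold were thus mostly missed, so a gene that did not pass may still differ by that much. Alternatives used DESeq2 1.42.0 and limma 3.58.1. Named genes are the members, other tested sodium channel genes, up to 4 members of each other list that passed or else the 2 with the smallest p, the 3 genes most like Scn3a and Scn8a, and genes of those lists called in an alternative, which were chosen after their values were seen. The members and lists were chosen with earlier results of these data known. A few genes that this rule names are not reported here, though the counts and medians of their lists include them.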

Additional observations from a re-analysis of the deposited data

How the results depend on the processing

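No subunit passed in any of 19 alternatives (3 other scalings, 2 other filters, a non-robust fit, DESeq2, limma-voom with and without quality weights, each library left out, 3 libraries left out, and a cycling marker covariate). Of 132 member fold changes in these settings 131 kept their direction, Scn4b not being tested under the stricter filter (1 CPM or more in 4 libraries). With DESeq2 Scn4b had a fold change but no adjusted p. The log2 fold change of Scn2b turned to -0.0197 with the cycling covariate, which was added after seeing the data. The lowest adjusted p of a member was 0.054, for Scn3a without mutant 1. Of the 51 tested genes of the 4 sodium channel lists, between 0 and 3 passed with 1 library left out, 3 of them without mutant 1. The count over all genes, 70, ran from 26 to 544 with 1 library left out. It was 26 without mutant 4, 32 without wild type 8, 33 without mutant 2, 36 without mutant 3 or wild type 5 and 544 without mutant 1. It was 497 with DESeq2, 233 with limma-voom and quality weights, 214 with no low-count filter, 171 with mutant 1 and wild type 5 and 6 all left out, and 147 with the cycling covariate; the cause was not tested. Other scalings shifted the median over all genes by no more than 0.06 (log2). The difference in the mature over early log2 ratio was repeated in 9 settings only, with the longest transcript as length or 1 library left out. There it ran from -0.65 to -0.28. It was not repeated with 3 libraries left out or with the cycling covariate. No paired analysis was possible because the column headings carry no replicate number and each pool came from another mother. With 4 libraries a group, the widest member interval other than that of Scn4b still allowed a 2.31-fold higher level, for Scn1a.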
